A study of Mus musculus with 46 samples.

Results

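The genes described here are 9 genes of red blood cells, chosen by their function as the listed rows of the series' counts table: the adult beta globins Hbb-bs and Hbb-bt, the adult alpha globins Hba-a1 and Hba-a2, the haem enzyme Alas2, the transcription factors Klf1 and Gata1, the erythropoietin receptor Epor, and 1 further gene that was not analysed here. The 8 genes analysed are part of 46011 rows with values in all tumors. The list was drawn up with levels across the groups already known, so what follows for changes between days and between responses describes genes that were picked and gives no independent support to any pattern.

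RNA was sequenced from 46 AB1-HA tumors, a murine mesothelioma line that carries the influenza haemagglutinin antigen, grown under the skin of both flanks of male BALB/c mice aged 8 to 10 weeks. Mice received cyclophosphamide (CY), an alkylating drug, at 200 mg/kg on day 10, a single tumor was resected per mouse, and the tumor left in place gave the response. The groups were 13 complete responders (CR) and 13 PR tumors (progressors in the study, partial responders in the labels) taken on day 9 before any CY (Day-1), 5 CR and 5 PR tumors taken on day 13 (Day+3), and 5 CR and 5 PR tumors taken on day 17 (Day+7). Time after CY went together with tumor age and with sequencing depth, and these cannot be told apart. Day-1 libraries held 10227681 to 14218987 counts over the genes covered, Day+3 libraries 15412744 to 18748688 counts and Day+7 libraries 16047930 to 19446596 counts. A change in a bulk tumor may be a change in the number of red cells or in the RNA each holds, which cannot be told apart here.

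Red blood cells form in the bone marrow, and in mice also in the spleen, from progenitors that depend on the hormone erythropoietin and its receptor. Gata1 and Klf1 switch on the globin genes and the enzymes of haem synthesis, of which Alas2 makes the first committed step in erythroid cells. Mature red cells have lost their nucleus but young ones, the reticulocytes, still carry globin RNA, so blood in a tissue brings globin transcripts with it. Alkylating drugs such as CY are known to stop blood cell production in the marrow for some days, after which it recovers.

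In the GRCm38 assembly Hbb-bs lies at chr7:103826534-103828096 and Hbb-bt at chr7:103812524-103813996, both on the minus strand of the beta globin cluster. Hba-a1 lies at chr11:32283511-32284465 and Hba-a2 at chr11:32296489-32297298, both on the plus strand. Alas2 lies at chrX:150547375-150570638 (plus), Gata1 at chrX:7959260-7978071 (minus), Klf1 at chr8:84901928-84905291 (plus) and Epor at chr9:21958897-21963506 (minus). The globin pairs are near copies: 91% of the 31-base windows of the main Hba-a2 transcript also occur in that of Hba-a1, and 59.4% of those of Hbb-bt occur in that of Hbb-bs. How counts were split within a pair is therefore uncertain. As background, the assembly holds the C57BL/6 form of the beta globin cluster, while BALB/c mice carry another form of it, so the names Hbb-bs and Hbb-bt stand for the nearest reference gene. The effect of this on the split was not tested.

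The promoters of both beta globins, an alpha globin, Alas2 and Epor are shown because the first 4 of these genes moved together between days and Epor moved the other way. They come from RefSeq on GRCm38.p6 and run from 250 bases before to 50 bases after the RefSeq start. Capitals mark matches, on either strand, to the GATA words AGATAA and TGATAA, to CACCC (the core of the site Klf1 binds) and to CCAAT. None of the 30 matches in the 8 promoters overlapped another.
Hbb-bs, chr7:103827879-103828178, minus strand: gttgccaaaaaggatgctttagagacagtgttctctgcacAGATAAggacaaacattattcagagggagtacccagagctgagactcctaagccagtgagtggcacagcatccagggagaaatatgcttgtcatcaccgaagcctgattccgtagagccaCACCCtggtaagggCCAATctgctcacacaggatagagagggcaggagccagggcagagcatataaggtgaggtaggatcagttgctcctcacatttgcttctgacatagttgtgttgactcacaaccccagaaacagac
Hbb-bt, chr7:103813874-103814173, minus strand: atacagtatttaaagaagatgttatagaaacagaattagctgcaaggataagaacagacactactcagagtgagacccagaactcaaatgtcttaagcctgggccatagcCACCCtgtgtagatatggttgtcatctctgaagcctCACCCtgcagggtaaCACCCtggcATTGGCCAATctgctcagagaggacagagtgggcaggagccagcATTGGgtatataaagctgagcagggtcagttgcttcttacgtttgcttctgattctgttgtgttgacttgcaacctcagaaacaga
Hba-a1, chr11:32283422-32283721, plus strand: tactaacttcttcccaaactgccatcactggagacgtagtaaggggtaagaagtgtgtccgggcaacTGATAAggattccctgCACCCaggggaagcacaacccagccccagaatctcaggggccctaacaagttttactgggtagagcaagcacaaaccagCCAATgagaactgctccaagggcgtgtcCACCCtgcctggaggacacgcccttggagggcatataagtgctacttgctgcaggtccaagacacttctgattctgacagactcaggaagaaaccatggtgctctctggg
Alas2, chrX:150547167-150547466, plus strand: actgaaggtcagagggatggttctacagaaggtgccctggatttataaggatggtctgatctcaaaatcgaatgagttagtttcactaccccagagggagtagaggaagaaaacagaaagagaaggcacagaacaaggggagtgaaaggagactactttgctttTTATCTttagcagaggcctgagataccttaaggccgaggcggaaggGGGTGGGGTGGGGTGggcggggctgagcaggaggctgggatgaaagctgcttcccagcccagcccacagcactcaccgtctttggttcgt
Epor, chr9:21963527-21963826, minus strand: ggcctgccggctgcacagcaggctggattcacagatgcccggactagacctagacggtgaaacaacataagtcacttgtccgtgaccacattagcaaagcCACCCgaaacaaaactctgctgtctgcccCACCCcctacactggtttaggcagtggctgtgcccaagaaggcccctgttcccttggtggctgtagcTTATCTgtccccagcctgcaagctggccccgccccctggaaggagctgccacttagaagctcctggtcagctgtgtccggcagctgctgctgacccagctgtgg
The Hba-a2 promoter window was offset by 3 bases from that of Hba-a1 and the same in all 297 shared positions, whereas Hbb-bs and Hbb-bt agreed in 168 of 299 positions (56.2%) without gaps. A GATA word was present in 6 of the 8 promoters, all but Hbb-bt and Gata1, against 18.6% of the 32851 mouse promoters of this length. CACCC was present in 8 of 8, against 57.5% of promoters, and CCAAT in 5 of 8, against 37.4%. Epor, whose levels went the opposite way to the globins, held a GATA word and CACCC as Hbb-bs did. A match is a stretch of letters in the window and does not show that a factor binds there.

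Globin RNA was present at a low level before CY and several-fold above that level 7 days after it. At 3 days beta globin RNA was at or near 0 and alpha globin RNA was several-fold lower than before CY. Levels are in CPM, a count relative to the library size (1 CPM is 1 count in a library of 1e+06 counts), with library sizes scaled by the TMM method. The globin genes took 0.00506% of the counts at Day-1, 0.000533% at Day+3 and 0.0354% at Day+7 as a mean over tumors. Of the 8 genes, 7 had enough counts for the model over all tumors, and Klf1 did not. At a false discovery rate (FDR) under 0.1 in edgeR, 5 of these 7 were lower at Day+3 than at Day-1 (the 4 globins and Alas2) and 2 were higher (Gata1, Epor). Of all 13194 genes tested, 39.6% were called lower and 37.9% higher in that comparison. At Day+7 against Day-1, 6 of the 7 were higher and Epor was lower, where 43% of all genes were called higher and 42.8% lower. At Day+7 against Day+3 the same 6 were higher and Epor was lower, beside 38.8% and 36.5% of all genes. With calls this common, a call alone says little about a gene. The median log2 fold change over all genes was -0.02, -0.01 and 0.02 in the 3 comparisons. Such a median shows that rises and falls balanced, and not how large a typical change was. By p in edgeR, the 7 genes ranked from 984 (Hbb-bs) to 8607 (Gata1) of 13194 at Day+3 against Day-1. At Day+7 against Day-1 they ranked from 2544 (Hbb-bt) to 7820 (Epor).

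**Figure D1:**
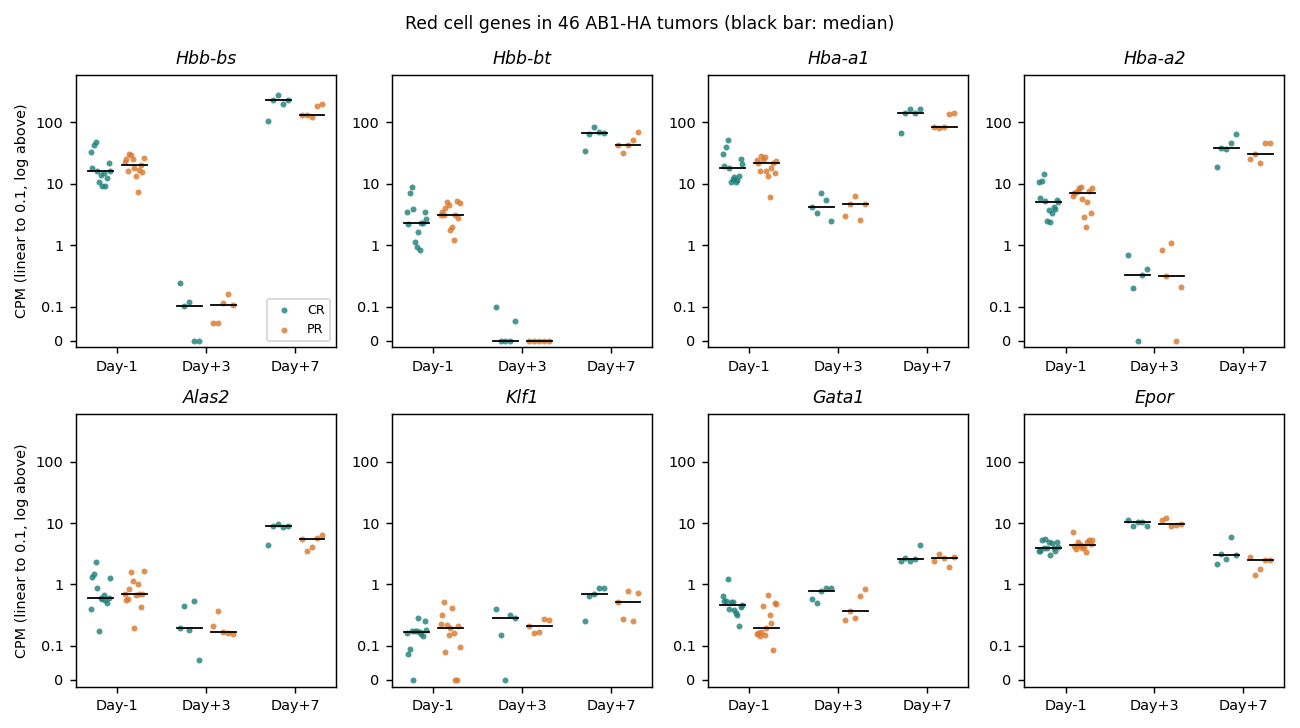
CPM of the 8 genes in each tumor (points) by day, with CR at the left and PR at the right within a day and the median as a black bar. The y axis is linear up to 0.1 CPM and logarithmic above. Hbb-bs lay between 0 and 0.246 CPM in the 10 Day+3 tumors and between 105 and 274 CPM in the 10 Day+7 tumors.

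Hbb-bs, the more abundant beta globin row, ranged over Day-1 tumors from 7.25 to 47 CPM with a median of 17.4 CPM. At Day+3 it had 0.246, 0.10, 0.120, 0 and 0 CPM in CR tumors and 0.0524, 0.0530, 0.112, 0.161 and 0.105 CPM in PR tumors, which are 18 counts in all. At Day+7 it had 105, 234, 274, 196 and 231 CPM in CR tumors and 132, 130, 120, 186 and 197 CPM in PR tumors. The 3 days did not overlap: every Day+3 tumor was below every Day-1 tumor and every Day+7 tumor above. For this and the genes below, the share of all genes set apart between days in this way was not counted. The fitted log2 fold change was -7.60 (SE 0.44) at Day+3 and 3.13 (SE 0.18) at Day+7, each against Day-1. A count of 0 in a Day+3 tumor allows a level of up to 0.147 to 0.179 CPM (3 counts, depending on the library), which covers counting error only.

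Hbb-bt, the second adult beta globin row, ranged from 0.844 to 8.98 CPM at Day-1, with a median of 3.06 CPM. At Day+3 it was at 0 in 8 of 10 tumors, with 3 counts in 2 CR tumors and none in the 5 PR tumors. By Day+7, CR tumors had 33.9, 64.8, 85.1, 69.1 and 66 CPM and PR tumors had 42.3, 31.9, 43.5, 51.1 and 68.8 CPM. Here too the 3 days did not overlap. With so few counts the Day+3 change is given as a ratio of pooled levels, 0.00496 of the Day-1 level with a 95% counting interval from 0.00102 to 0.0145. The Day+7 change from Day-1 was 4.08 on the log2 scale (SE 0.21), the highest of the 7 genes.

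Hba-a1, an adult alpha globin, kept more of its RNA at Day+3 than the beta globins did. It ranged from 6.05 to 51 CPM at Day-1 with a median of 18.9 CPM. At Day+3 CR tumors had 4.18, 3.36, 7.12, 5.48 and 2.47 CPM and PR tumors had 2.99, 4.72, 6.30, 2.58 and 4.60 CPM, each from 43 counts or more. Of the 10 Day+3 tumors, those with 7.12 and 6.30 CPM lay above the lowest Day-1 tumor, and the rest lay below every Day-1 tumor. CR tumors at Day+7 had 66.3, 143, 165, 140 and 165 CPM and PR tumors had 82.7, 79.5, 82.5, 136 and 141 CPM, all above every Day-1 tumor. The log2 fold change was -2.23 (SE 0.25) at Day+3 and 2.54 (SE 0.19) at Day+7.

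Hba-a2, its near copy, ranged from 1.99 to 14.3 CPM at Day-1 with a median of 5.51 CPM. At Day+3 CR tumors had 0.688, 0.201, 0, 0.323 and 0.403 CPM and PR tumors had 0.839, 0.318, 1.07, 0 and 0.209 CPM. At Day+7 CR tumors had 18.6, 38.3, 36.3, 46.4 and 64.7 CPM and PR tumors had 25.5, 30.7, 21.8, 45.8 and 45.3 CPM. The 3 days did not overlap. The log2 fold change was -3.90 (SE 0.37) at Day+3 and 2.61 (SE 0.23) at Day+7. With each near-identical pair summed to a single row, which removes the split, the alpha globins changed by -2.43 (SE 0.26) and the beta globins by -7.57 (SE 0.45) at Day+3, and by 2.58 (SE 0.19) and 3.32 (SE 0.18) at Day+7.

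The make-up of the globin RNA was not the same on the 3 days. Per kilobase of the main transcript, alpha globin was 1.09 ± 0.124 times beta globin at Day-1 (SD, n = 26), 13.6 to 86.8 times with a median of 52.1 in the 9 Day+3 tumors with a beta globin count, and 0.652 ± 0.0732 times at Day+7 (SD, n = 10). The Day+7 ratios (0.541 to 0.762) were all below the Day-1 ratios (0.851 to 1.35). The Day+3 ratio rests on 886 alpha globin counts against 21 beta globin counts over 10 tumors. Hbb-bt made up 23.6% of beta globin counts at Day+7 and 13.8% at Day-1, when pooled over tumors, and the range over tumors was 19.7% to 26.6% at Day+7 and 5.44% to 20.3% at Day-1, which overlap at their ends. Hba-a2 made up 8.58% of pooled alpha globin counts at Day+3, against 23% at Day-1, and 23.8% at Day+7. These shares come from the same counts as the changes between days, so they are given without a test.

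**Figure D2:**
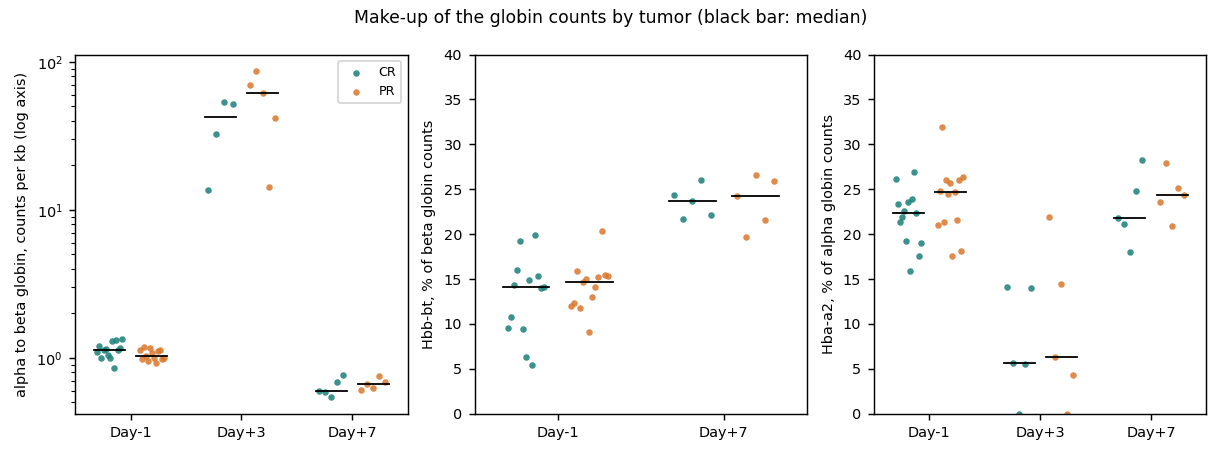
Ratio of alpha to beta globin per kilobase (left, log axis), share of Hbb-bt in beta globin counts (middle, Day+3 left out for its 21 counts) and share of Hba-a2 in alpha globin counts (right), per tumor (points) with CR left of PR and the median as a black bar. The ratio lay between 0.851 and 1.35 at Day-1, between 13.6 and 86.8 at Day+3 and between 0.541 and 0.762 at Day+7.

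Alas2, the erythroid form of the enzyme that starts haem synthesis, had the same order of days as the globins. It ranged from 0.174 to 2.33 CPM at Day-1 with a median of 0.683 CPM, which is 2 to 27 counts. At Day+3 CR tumors had 0.197, 0.452, 0.180, 0.537 and 0.0575 CPM and PR tumors had 0.210, 0.371, 0.169, 0.161 and 0.157 CPM. At Day+7 CR tumors had 4.41, 9.07, 9.61, 8.69 and 8.84 CPM and PR tumors had 5.39, 3.46, 4.05, 5.6 and 6.27 CPM. All Day+7 tumors were above all Day-1 tumors, whereas the Day+3 values overlapped the lower part of the Day-1 range. The log2 fold change was -1.74 (SE 0.30) at Day+3 and 2.89 (SE 0.21) at Day+7.

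Gata1, the master transcription factor of the erythroid lineage that is also used by megakaryocytes, mast cells and eosinophils, was called higher at Day+3, when the globins were lower. It ranged from 0.0866 to 1.21 CPM at Day-1 with a median of 0.390 CPM, or 1 to 14 counts a tumor. At Day+3 CR tumors had 0.590, 0.502, 0.778, 0.860 and 0.863 CPM and PR tumors had 0.262, 0.371, 0.281, 0.646 and 0.836 CPM, within the Day-1 range. At Day+7 CR tumors had 2.37, 2.69, 2.37, 2.59 and 4.32 CPM and PR tumors had 2.44, 3.12, 2.72, 1.95 and 2.78 CPM, above every earlier tumor. Its log2 fold change was 0.63 (SE 0.22) at Day+3 and 2.83 (SE 0.18) at Day+7.

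Klf1, the factor that binds CACCC boxes of adult beta globin, was the least abundant of the genes per length at Day-1 and at Day+7. It had 0 to 7 counts in a Day-1 tumor and 0 to 8 in a Day+3 tumor, too few to enter the model. At Day+7 CR tumors had 0.256, 0.659, 0.697, 0.864 and 0.877 CPM and PR tumors had 0.513, 0.272, 0.768, 0.252 and 0.724 CPM, against 0 to 0.512 CPM with a median of 0.171 CPM at Day-1. The highest Day-1 tumor was above the 3 lowest Day+7 tumors. Without a filter on low counts the log2 fold change at Day+7 was 1.67 against Day-1 (edgeR, adjusted p = 3.75e-06), and that at Day+3 was 0.36 (adjusted p = 0.453).

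Epor, the receptor through which erythropoietin keeps red cell progenitors alive, went the other way from the globins on both days. It ranged from 2.97 to 7.07 CPM at Day-1 with a median of 4.29 CPM. At Day+3 CR tumors had 11.2, 9.04, 10.3, 10.3 and 8.92 CPM and PR tumors had 11.1, 12.2, 8.94, 9.20 and 9.56 CPM, all above every Day-1 tumor. At Day+7 CR tumors had 2.17, 3.13, 2.58, 5.82 and 3.01 CPM and PR tumors had 2.82, 1.42, 1.81, 2.52 and 2.47 CPM, all below every Day+3 tumor and overlapping the Day-1 range. The log2 fold change was 1.19 (SE 0.11) at Day+3 and -0.69 (SE 0.12) at Day+7, each against Day-1. Its ligand Epo had 2 counts in 26 Day-1 tumors, 2 in 10 Day+3 tumors and 3 in 10 Day+7 tumors.

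**Figure D3:**
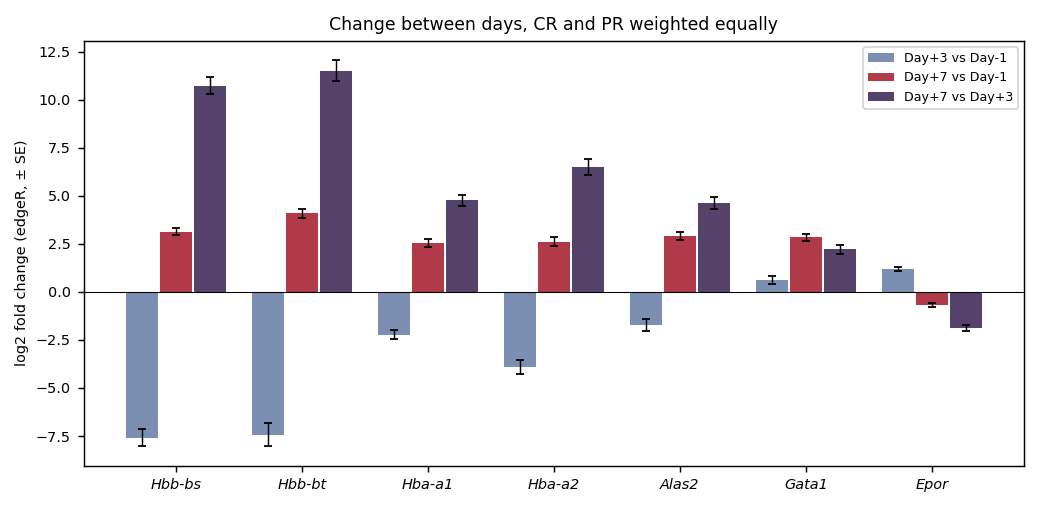
Log2 fold change (bars, edgeR) and its SE (lines) of the 7 genes in the model, for Day+3 and Day+7 against Day-1 and for Day+7 against Day+3. The 4 globins and Alas2 are below 0 at Day+3 and above 0 at Day+7, Gata1 is above 0 in all 3 comparisons, and Epor is above 0 only at Day+3 against Day-1. The Day+3 bar of Hbb-bt rests on 3 counts.

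Per kilobase, the order of the median levels at Day-1 was Hbb-bs (27.7 CPM per kb), Hba-a1 (27), Hba-a2 (9.94), Hbb-bt (4.35), Epor (2.44), Alas2 (0.336), Gata1 (0.205) and Klf1 (0.112), and the ranges over tumors of neighbours overlapped except for Epor (1.69 to 4.01) and Alas2 (0.0852 to 1.14). At Day+3 Hba-a1 (6.28 CPM per kb) and Epor (5.64) led, with ranges of 3.54 to 10.2 and 5.07 to 6.95, and the 6 others had medians of 0 to 0.578. Epor was thus of the same order as the leading globin at Day+3. At Day+7 the order was Hbb-bs (304 CPM per kb), Hba-a1 (198), Hbb-bt (82.4), Hba-a2 (67.3), Alas2 (2.91), Epor (1.45), Gata1 (1.39) and Klf1 (0.443). Between Hba-a2 and Alas2 there was no overlap at Day+7 (33.5 to 117 against 1.70 to 4.72), so the globins stood apart from the other genes on that day.

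CR and PR tumors were compared within each day, which asks whether red cell RNA went with the response. None of the 8 genes was called in any of these comparisons by edgeR at an FDR under 0.1, and CR and PR values overlapped for all 8 genes on all 3 days. The share of all genes with such an overlap was not counted. At Day-1, 5 genes were tested with 0 calls, beside 0.00928% of all genes called, and log2 fold changes lay between -0.14 (Epor, SE 0.11) and 0.11 (Hba-a1, SE 0.25). At Day+3, 3 genes were tested with 0 calls, beside 0% of all genes, and Gata1 had the largest difference at 0.57 (SE 0.34, adjusted p = 1). This Gata1 value was 0.30 with the skin genes as a covariate and 0.87 without PR tumor CT3_9. At Day+7 all 8 were tested with 0 calls, beside 0% of all genes. An unadjusted edgeR p below 0.05 was found for 0 of 5, 0 of 3 and 1 of 8 listed genes tested on the 3 days. Of all genes tested it was found for 1885 of 10777, 256 of 11839 and 333 of 11727. By DESeq2 or by limma-voom, 0 of the listed genes were called on each day.

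At Day+7 the fitted difference was above 0 in all 8 genes, and these values come from the same 10 tumors and 4 of the genes share near-identical sequence. Alas2 had the largest, 0.72 (SE 0.23, edgeR p = 0.0103, adjusted p = 0.967). Of the 5 CR tumors, 4 had 8.69 to 9.61 CPM of Alas2 and lay above every PR tumor (3.46 to 6.27 CPM), and the fifth, tumor CT7_2, had 4.41 CPM. The same CR tumor had the lowest Hbb-bs, Hba-a1 and Hba-a2 of the 10 Day+7 tumors. Without it the difference was 0.87 for Alas2, 0.62 for Hbb-bs, 0.59 for Hbb-bt and 0.56 for Hba-a1, with an adjusted p of 0.845 for each of them. Epor differed by 0.61 (SE 0.29, adjusted p = 0.967), with 3 of 5 CR tumors above every PR tumor and 1 of them, at 5.82 CPM, far above the rest. Without that tumor, CT7_6, the value was 0.30. Gata1 had the smallest fitted difference, 0.15 (SE 0.21), and its CR median (2.59 CPM) was below its PR median (2.72 CPM).

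**Figure D4:**
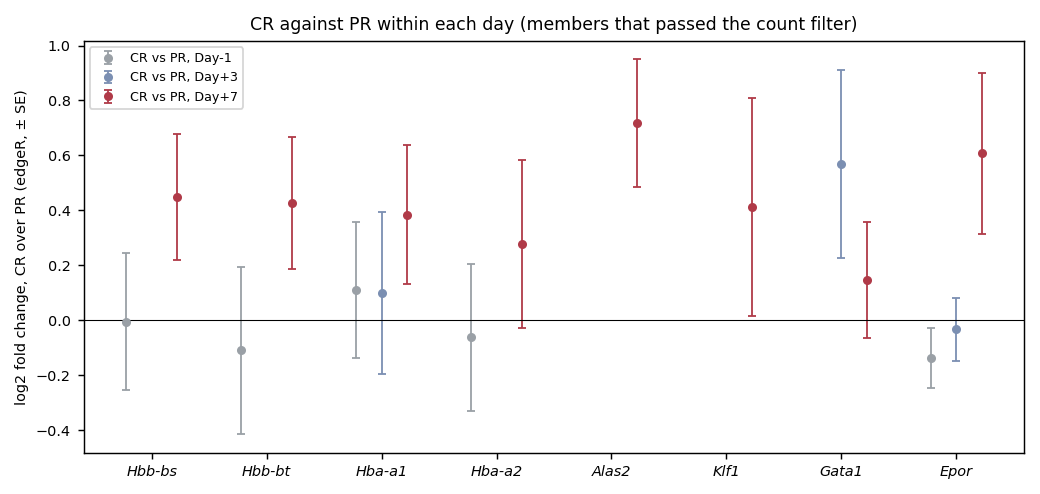
Log2 fold change of CR over PR (points, edgeR) and its SE (lines) within each day, for the genes that passed the count filter on that day. All 8 points of Day+7 are above 0, from 0.15 for Gata1 to 0.72 for Alas2, and none was called at an FDR under 0.1.

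Gata1 at Day-1 was below the count filter, and its values were looked at after the others. CR tumors ranged from 0.213 to 1.21 CPM with a median of 0.454 CPM, and PR tumors from 0.0866 to 0.668 CPM with a median of 0.198 CPM. All 13 CR tumors were above the PR median, and 7 of 13 PR tumors were below every CR tumor, at 3 to 14 counts a CR tumor and 1 to 8 counts a PR tumor. Without the filter the log2 fold change was 0.78 (edgeR, p = 0.0131, adjusted p = 0.344), and in the model of all 46 tumors it was 0.79 (p = 0.00483, adjusted p = 0.165). Neither passed the threshold.

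Whether the change over days differed between CR and PR was tested as an interaction in the model of all tumors. No gene of the 7 tested was called, by edgeR, at Day+3 (beside 0% of all genes) or at Day+7 (beside 0.00758%). An unadjusted edgeR p below 0.05 was found for 0 of the 7 at Day+3 and 1 at Day+7. Of all 13194 genes tested it was found for 461 and 1521. By DESeq2 and by limma-voom, 0 of the 7 were called as well. Epor had the smallest p: its change to Day+7 was 0.73 higher on the log2 scale in CR than in PR (SE 0.24, p = 0.0034, adjusted p = 0.336), and 0.44 higher without CR tumor CT7_6.

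Across the 26 Day-1 tumors the levels of the 4 globins varied together, and those of the other genes went with them loosely or without a call. Over log2 CPM values, Pearson's r was 0.949 for Hbb-bs with Hba-a1 (Spearman's rho 0.949), which lie on different chromosomes. The 6 globin pairs had r between 0.805 and 0.949, each with an adjusted permutation p of 4.67e-05 over 28 pairs, from the smallest p that 100000 permutations give, 1e-05. Without the 2 tumors farthest from the median the 6 values lay between 0.720 and 0.925. Alas2 had r = 0.537 with Hbb-bt (rho 0.438, adjusted permutation p = 0.0194 and 0.0936), and 0.429 to 0.463 with the other 3 globins (rho 0.352 to 0.409, adjusted permutation p = 0.062 to 0.0794 for r and 0.116 to 0.168 for rho). Without the 2 farthest tumors r with Alas2 was 0.596 for Hbb-bt, 0.494 for Hba-a1, 0.417 for Hba-a2 and 0.244 for Hbb-bs, so that with Hbb-bs rested on those tumors. Klf1, Gata1 and Epor had no pair with an adjusted permutation p under 0.1 by Pearson's r. By Spearman's rho, Epor with Hbb-bt had one (rho 0.463, adjusted permutation p = 0.0728, and r = 0.331 with adjusted permutation p = 0.183). In all, 10 of the 28 pairs were under 0.1 by r and 8 by rho.

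Within the 13 CR tumors and the 13 PR tumors taken apart, Hbb-bs and Hba-a1 had r = 0.942 and 0.975. Alas2 had r between 0.609 and 0.676 with the globins in CR tumors, and between 0.122 and 0.363 in PR tumors. Gata1 and Hbb-bs had r = 0.734 in CR tumors and -0.26 in PR tumors at Day-1. These values are given as a description, and the differences between CR and PR were not tested. In the 10 Day+7 tumors, a set added after the Day-1 values were seen, 13 of 28 pairs had an adjusted permutation p under 0.1 by r and 7 by rho. There Alas2 followed Hbb-bs at r = 0.902 (rho 0.939, adjusted permutation p = 0.00509 and 0.00177, and 0.890 without the 2 farthest tumors). Gata1 and Hbb-bs were at r = 0.163 (rho 0.139, adjusted permutation p = 0.759 and 0.791) in the same tumors.

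Other genes of the erythroid programme were counted from lists. More members were higher than lower at Day+7 in the erythroid lists, and more were lower than higher in the haem synthesis list. The lists were chosen with results on these data known. The median log2 fold change of all genes tested was near 0, which does not show how large a typical change was. Genes with enough counts on a single day could also be tested, so some entered only through the day on which they were high. Each count stands beside a background of 43% of all genes called higher and 42.8% lower at Day+7, and 37.9% higher and 39.6% lower at Day+3. At Day+7 against Day-1, 10 of 13 tested erythroid transcription factors and partners were higher and 2 lower, with a median log2 fold change of 1.43. Nfe2, a subunit of the NF-E2 factor that acts at the globin loci, had 14.5 ± 3.75 CPM at Day+7 and 1.13 ± 0.561 CPM at Day-1 (SD, n = 10 and 26), a log2 fold change of 3.68 (SE 0.18). Lmo2, which bridges Gata1 to its partners, changed by 2.30 (SE 0.09) and Cbfa2t3, a corepressor in that complex, by 2.62 (SE 0.11). At Day+3 4 members of this list were higher and 7 lower, with a median of -0.34.

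Red cell membrane genes had 9 of 13 tested members higher and 4 lower at Day+7 (median 0.28). Kel, which encodes the Kell blood group protein, had 204 counts in 10 Day+7 tumors and 0 in 26 Day-1 tumors, at least 136-fold higher when the Day-1 group is set at 3 counts. Kel was thus not detected before CY, at a time when globin RNA was present. At Day+3, 5 of the 13 were higher and 3 lower (median 0.18), a share higher that is near the 37.9% of all genes.

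Among red cell enzymes and late erythroid genes, 10 of 16 tested were higher and 5 lower at Day+7 (median 0.53). Hemgn, a nuclear protein of blood progenitors, had 7.16 ± 1.90 CPM at Day+7 and 0.581 ± 0.195 CPM at Day-1 (SD, n = 10 and 26), a log2 fold change of 3.61 (SE 0.15). Ctse, a protease of the red cell, changed by 2.02 (SE 0.14). At Day+3, 8 members were higher and 6 lower (median 0.12), and several of these genes, such as Gpx1 and Blvrb, are used by many cell types.

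Of the haem synthesis and transport genes other than Alas2, 1 of 10 was higher and 8 were lower at Day+7 (median -0.51). The one that was higher was Alas1, the form of the first enzyme used outside the erythroid lineage, at 1.02 (SE 0.04), and Fech, which places iron in haem, was lower at -0.43 (SE 0.03). Fech had 80.2 ± 3.30 CPM at Day+7 and 108 ± 4.65 CPM at Day-1 (SD, n = 10 and 26), and apart from Alas2 these enzymes are made in most cells. At Day+3, 3 were higher and 6 lower (median -0.22).

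In the erythropoietin signalling list 6 of 8 tested genes were higher and 1 lower at Day+7 (median 1.46), on the day on which Epor was lowest. Cish, a feedback inhibitor switched on by the receptor's STAT5 arm and by several other cytokine receptors, had 251 ± 25 CPM at Day+7 and 15.4 ± 5.22 CPM at Day-1 (SD, n = 10 and 26), a log2 fold change of 4.04 (SE 0.12). Jak2, the kinase bound to the receptor, changed by 2.20 (SE 0.06), and Kitl, the ligand of Kit, by -1.50 (SE 0.09). At Day+3, 4 were higher and 3 lower (median 0.12), with Bcl2l1, a survival gene of red cell precursors and other cells, at 0.75 (SE 0.07).

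**Figure D5:**
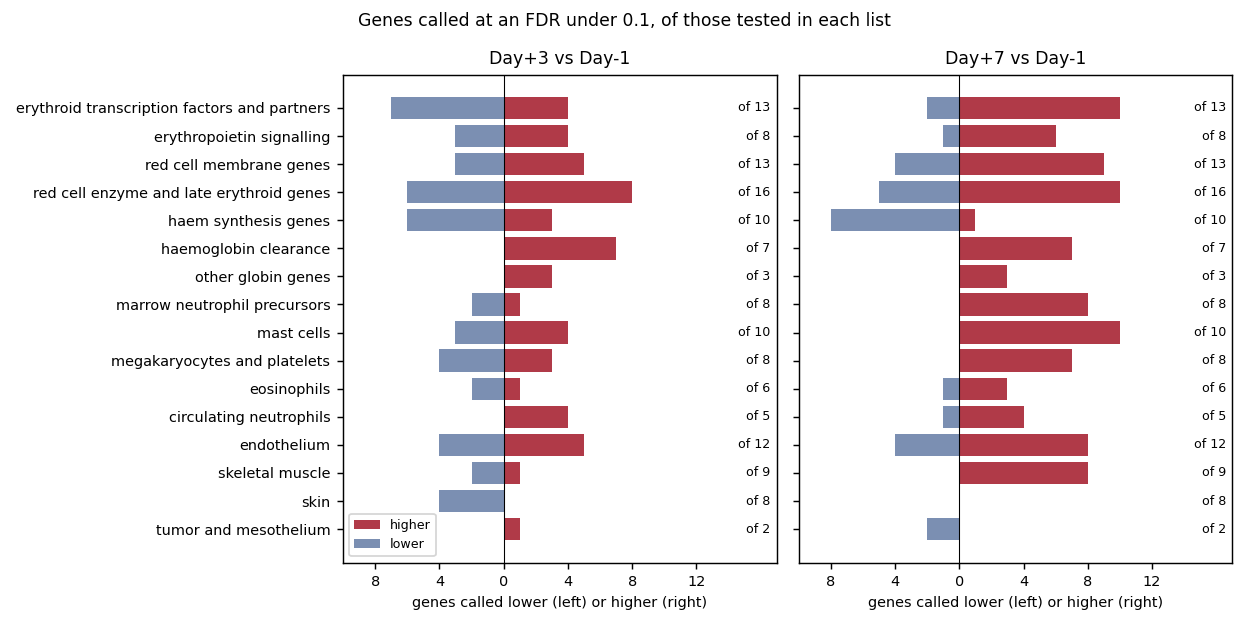
Number of genes of each list called higher (right of 0) or lower (left of 0) at an FDR under 0.1 in edgeR at Day+3 and at Day+7, each against Day-1, with the number tested at the right edge. At Day+7, 10 of 13 erythroid transcription factors and partners were higher and 8 of 10 haem synthesis genes were lower. On that day 8 of 8 marrow neutrophil precursor genes and 10 of 10 mast cell genes were higher. Some of the neutrophil precursor genes passed the count filter only through their Day+7 counts.

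Marker genes of other cells that use Gata1 or arrive with blood moved on the same day, and their part in the values above was not tested. Mast cell genes were higher in 10 of 10 at Day+7, with a summed level of 103 to 308 CPM at Day-1, 153 to 281 CPM at Day+3 and 414 to 626 CPM at Day+7. Kit and Gata2 stand on this list and on an erythroid list. Megakaryocyte and platelet genes were higher in 7 of 8 tested, with sums of 119 to 240 CPM at Day+7 and 72.9 to 102 CPM at Day-1. Eosinophil genes were higher in 3 and lower in 1 of 6 tested, with sums of 314 to 895 CPM at Day+7 and 103 to 236 CPM at Day-1. That difference was mostly Ear2, a ribonuclease gene on this list, at 380 ± 195 CPM at Day+7 and 2.62 ± 1.71 CPM at Day-1 (SD, n = 10 and 26). Epx, which was called higher, had means of 0.853 CPM at Day+7 and 0.0862 CPM at Day-1. Il5ra had means of 0.678 and 0.714 CPM on the same days. Ccr3, the eotaxin receptor, was the member that was lower.

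Genes of neutrophil precursors, which live in the marrow as erythroid precursors do, were higher in 8 of 8 tested at Day+7 (median 5.96), with a summed level of 199 to 758 CPM at Day+7 and 1.73 to 22.2 CPM at Day-1. Some of these genes passed the count filter only through their Day+7 counts, so being higher at Day+7 was nearly fixed for them. Elane and Camp, for example, had 1 and 11 counts over 26 Day-1 tumors, and 3 and 12 over 10 Day+3 tumors. Ngp, a granule protein of these precursors, had 10.8 to 127 CPM at Day+7 and 0 to 1.02 CPM at Day-1. Most of the Day+7 sum was Chil3 (mean 213 CPM) and Lcn2 (mean 136 CPM). The other genes of this list had means of 0.649 to 46.9 CPM at Day+7. At Day+3, when the globins were at their lowest, 1 was higher and 2 lower, with sums of 3.55 to 9.55 CPM. Of 5 genes of circulating neutrophils, 4 were higher and 0 lower at Day+3 (median 0.59), and 4 were higher and 1 lower at Day+7 (median 3.08). Csf3r, the receptor for the neutrophil growth factor G-CSF, had 33.7 ± 13.3 CPM at Day-1, 67.5 ± 12.1 CPM at Day+3 and 293 ± 70.9 CPM at Day+7 (SD, n = 26, 10 and 10). The summed levels, 380 to 2021 CPM at Day-1, 1300 to 3863 CPM at Day+3 and 664 to 1512 CPM at Day+7, were mostly Mmp9 on the first 2 of these days, the gene that was lower at Day+7, with means of 798, 2080 and 270 CPM.

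Of the vessel genes, 5 of 12 were higher and 4 lower at Day+3, and 8 higher and 4 lower at Day+7, with summed levels of 1427 to 1932 CPM at Day-1, 1541 to 1715 CPM at Day+3 and 745 to 1190 CPM at Day+7. Most of the Day-1 sum was Cd34, which is also made outside vessels, at 379 ± 124 CPM at Day+7 and 1422 ± 132 CPM at Day-1 (SD, n = 10 and 26). The vessel sum at Day+3 lay within the Day-1 range and was mostly Cd34, at 1303 ± 47.3 CPM (SD, n = 10). Of the 4 vessel genes with the smallest p at Day+3, Mmrn2 (1.29, SE 0.07) and Egfl7 (1.08, SE 0.08) were higher. Kdr (-0.69, SE 0.07) and Flt1 (-0.54, SE 0.06) were lower. Skeletal muscle genes were higher in 8 of 9 at Day+7, with sums of 433 to 2507 CPM at Day+7 and 170 to 1341 CPM at Day-1. Skin genes were called in 0 of 8 at Day+7 and were lower in 4 of 8 at Day+3, with sums of 2.58 to 762 CPM over Day-1 tumors. Of the tumor and mesothelium genes 2 were tested. Msln, the mesothelin gene, had a log2 fold change of -0.12 (SE 0.10) at Day+3, which was not called, and of -2.55 (SE 0.12) at Day+7. Krt8, a keratin of epithelial and mesothelial cells, was higher at Day+3, at 1.26 (SE 0.33), and lower at Day+7, at -3.93 (SE 0.50). Its Day+3 range of 5.65 to 91.9 CPM (median 12.36) overlapped the Day-1 range of 3.15 to 28.4 CPM (median 10.25).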

How the data were processed

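RNA of 46 tumors was pseudoaligned by the authors with kallisto to GRCm38.p6, per the submitters' processing notes, and deposited as raw counts for each gene symbol, with no scaling. The kallisto version and the summing to genes are not given in the sources used here, and read length is given differently in the labels and in the methods. The table analysed here has 46012 rows and ends within Pax7, of which 46011 were complete, so later symbols in its order are not covered. One listed gene was not analysed here. Groups were taken from the labels. Nothing shows that a title number links tumors of different groups.

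In R 4.3.3, counts were filtered with filterByExpr, scaled by TMM (factors 0.849 to 1.13) and fitted by the quasi-likelihood method of edgeR 4.0.16 (legacy form), with Benjamini-Hochberg adjustment over all genes tested at an FDR under 0.1. The study's methods used DESeq2 at the same threshold, and here DESeq2 1.42.0 was an alternative, as was voom of limma 3.58.1. CR and PR were compared within days (26, 10 and 10 tumors), and days in a model of 6 groups over 46 tumors that weights CR and PR equally. The SE of a log2 fold change is its absolute value divided by the square root of the F statistic of its edgeR test. It is approximate, above all where a group has counts near 0. CPM values use TMM library sizes, and log2 CPM a prior count of 2. Named genes were all listed genes, up to 4 genes per list with the smallest p at Day+3 or Day+7 against Day-1, and the genes most correlated with the listed ones. Some genes that met this rule are not reported here. Epo, Hbb-y, Hba-x and Hbb-bh1 were named after their values were seen. The fits were tested on simulated counts. Transcript windows and gene positions come from GENCODE M21. Alternatives were no filter, a minimum of 1 CPM, an FDR of 0.05, DESeq2's size factors, library sizes without the listed genes, near-identical genes summed, all 46 tumors in 1 model, a skin covariate, a prior count of 0.5, and each tumor left out. The listed genes, the gene lists and the tests were chosen with earlier results of these data known.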

Additional observations from a re-analysis of the deposited data

Results flagged for a closer look

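In each group of 5 tumors, each listed gene was checked for a tumor far from the other 4 (gap to the nearest tumor over the range of the group above 0.71). Of 31 combinations of gene and group with values, 5 stood out. For independent, normally distributed values the rule flags about 1 in 20. Several of these genes varied together in the same tumors and some had few counts, so the 5 cannot be set against that rate. Of the CR tumors at Day+7, CT7_2 was far below the rest for Hba-a1 (66.3 CPM, next 140 CPM) and for Alas2 (4.41 CPM, next 8.69 CPM). CR tumor CT7_8 was far above the rest at Day+7 for Gata1 (4.32 CPM, next 2.69 CPM), and CR tumor CT7_6 for Epor (5.82 CPM, next 3.13 CPM). PR tumor CT3_5 was above the rest at Day+3 for Alas2 (0.371 CPM, next 0.210 CPM), which are 7 and 4 counts.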

How the results depend on the processing

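The number of listed genes called was as follows over all alternatives run: 7 for Day+3 against Day-1, 7 to 8 for Day+7 against Day-1 and against Day+3, where the eighth was Klf1 without a filter on counts, and 0 for CR against PR and for the interactions. Leaving out each tumor in turn gave 7 to 7 calls for each pair of days and 0 to 0 elsewhere. No call between days changed direction. Between CR and PR, small differences crossed 0. At Day-1, Hbb-bs was 0.000863 with library sizes without the listed genes and 0.00408 with a minimum of 1 CPM, Hba-a1 was -0.000483 with limma-voom, and Hba-a2 was 0.0699 with near-identical genes summed. At Day+3, with the skin covariate, Hba-a1 was -0.11 and Epor was 0.0538. Leaving out a tumor turned the sign for Hbb-bs at Day-1 (range -0.168 to 0.0624), Hba-a1 (-0.0664 to 0.171) and Hba-a2 (-0.238 to 0.00661) at Day-1, Hba-a1 (-0.118 to 0.277) and Epor (-0.0816 to 0.039) at Day+3, and Gata1 at Day+7 (-0.0438 to 0.222). The cause was not tested, and none of these was called. Correlations had an adjusted p under 0.1 in 10 pairs of listed genes, in 6 within PR tumors, which are 13 of the 26, and in 13 in the Day+7 tumors. Of all genes, CR against PR at Day-1 gave 1 call in edgeR, 8 in the model of all 46 tumors, 443 in DESeq2 and 1 to 874 when 1 tumor was left out, with the highest without PR tumor CT12. At Day+3 and Day+7 it gave 0 in edgeR, 3 and 5 in DESeq2, and up to 1 with a tumor left out. The interactions gave 0 (Day+3) and 1 (Day+7) in edgeR, 3 and 40 in DESeq2, and 0 to 10 and 0 to 94 with a tumor left out. The 1 call was lost with limma-voom and at an FDR of 0.05 (0 each). No listed gene was among the calls of any of these. No paired analysis was possible because CR and PR tumors are from separate mice and their title numbers carry no stated link. A level of 3 counts is 0.211 to 0.297 CPM at Day-1 and 0.147 to 0.179 CPM at Day+3, which limits Klf1 and Gata1 at Day-1 and the beta globins at Day+3.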

Other observations

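The tested genes that handle free haemoglobin, haem and its iron were higher on both days. Of 9 listed, 7 were tested. All 7 were higher at Day+3 (median log2 fold change 0.93) and at Day+7 (median 1.75). Summed levels were 2893 to 3632 CPM at Day-1, 4945 to 6159 CPM at Day+3 and 6388 to 9656 CPM at Day+7. Most of each sum was the ferritin genes. Fth1 had means of 1339, 1825 and 2904 CPM on the 3 days, and Ftl1 1749, 3328 and 4319 CPM. Hpx, the haem scavenger hemopexin, had 0.971 ± 0.604 CPM at Day-1, 1.86 ± 0.542 CPM at Day+3 and 37.5 ± 17.1 CPM at Day+7 (SD, n = 26, 10 and 10). Hmox1, the enzyme that breaks haem open, had 54.9 ± 13.6 CPM, 100 ± 10.1 CPM and 191 ± 59.1 CPM on the same 3 days. So the clearance genes were higher at Day+3, when globin RNA was lowest, as well as at Day+7, when it was highest.

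Globins of other cells did not share the fall at Day+3. Mb, the oxygen store of muscle, changed by 1.30 (SE 0.22) at Day+3 and by 1.76 (SE 0.21) at Day+7. Cygb, a globin of fibroblast-like cells, changed by 0.94 (SE 0.13) and 1.18 (SE 0.12), and Ngb, the globin of neurons, by 1.66 (SE 0.27) and 1.43 (SE 0.28). The embryonic genes Hbb-y and Hba-x had 1 and 2 counts in 10 Day+3 tumors and 0 and 2 counts in 10 Day+7 tumors. Hbb-bh1, another embryonic globin gene, had 3 counts in 26 Day-1 tumors, 16 in 10 Day+3 tumors and 2 in 10 Day+7 tumors.

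With group means subtracted, the genes outside the list whose log2 CPM most resembled the summed globins over the 46 tumors were Clec3b (r = 0.594), Aamdc (0.593), Ndn (0.587), Pamr1 (0.586) and Lyz1 (0.564). Library depth differed between these tumors, and how depth or dissection bears on r was not tested. The values of r are given as a description. Genes near to Epor by the same measure included Ddah2 (0.734), Col16a1 (0.677), Nsmf (0.670) and Ltbp3 (0.667). For Gata1, Klf1 and Alas2 the nearest reached 0.529 (Nctc1), 0.523 (Gm2541) and 0.533 (A730082K24Rik). The means of these nearest genes were 0.636, 1.72 and 0.367 CPM. Gata1, Klf1 and Alas2 themselves had at most a few counts in many tumors, where a weak correlation is no finding.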
